A study of Mus musculus with 12 samples.

Results

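The libraries described here come from wild type mouse leukemic cells that carried no floxed Hoxa cluster and received a Cre retrovirus or a control GFP retrovirus. Of the 12 libraries of the series, 6 belong to this comparison, 3 with the label WT-GFP and 3 with WT-Cre. They were chosen by those labels. All 6 were made from adult C57BL/6 bone marrow leukemic cells with the genotype MA9-Hoxa-wild type, where MA9 stands for the MLL-AF9 fusion oncoprotein that drives the leukemia and is shared by every library of the series. The cells were spinoculated with retroviral particles, sorted for high GFP and grown overnight in medium with SCF at 100 ng/mL and with the cytokines GM-CSF, IL-6 and IL-3 (each at 10 ng/mL), so both groups carried a virus and both were GFP positive. Total RNA depleted of ribosomal RNA was sequenced as stranded libraries. The other 6 libraries are from floxed cells of adult C57BL/6J bone marrow with the control virus (Hoxa-flox, 3) or after Cre (Hoxa-del, 3), and are used only where the Cre change in wild type cells is set beside that in floxed cells. Nothing in the labels ties the replicates to separate mice, cultures or infections. The spread behind each p-value is therefore that between libraries and may be technical.

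Cre recombinase is a bacteriophage enzyme that cuts and rejoins DNA between loxP sites, and it is used to delete a gene flanked by such sites. Cells without loxP sites that receive the same virus are the usual control for effects of Cre or of its vector that do not come from the intended deletion. At high levels Cre is known to act on loxP-like sequences of mammalian genomes, which can break DNA and slow growth. MLL-AF9 leukemic cells resemble granulocyte and monocyte progenitors, and Hoxa genes such as Hoxa9 are what Cre is meant to delete in the floxed cells.

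Values are FPKM, fragment numbers scaled by transcript length and by library size. Of the 25263 gene symbols, 13088 had a mean of at least 1 FPKM over the 6 wild type libraries and were tested with limma on log2(FPKM + 1). Changes are WT-Cre minus WT-GFP on that scale, which understates the change of low genes, and an adjusted p under 0.05 (Benjamini-Hochberg over all 13088) counts as past the threshold. Only 5 symbols passed, 0.0382% of those tested. Of these, 4 were lower after Cre virus (0.0306%) and 1 was higher (0.00764%). At an unadjusted p under 0.05 there were 2220 (17.0%), of which 788 were higher (6.02%) and 1432 lower (10.9%), and the median of their absolute changes was 0.29. Over all tested genes the median change was -0.03, and the median SD within a group was 0.117 for WT-GFP and 0.125 for WT-Cre.

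Estimated depth ran from 11700000 to 18600000 fragments in 5 libraries. WT-Cre 2 had 4020000 and the lowest mean correlation with the other libraries (0.949, against 0.971 to 0.978). The 10 highest rows of each library, among them the structural RNAs Rn7sk and Rmrp, held 38.8% to 47.0% of all FPKM in WT-GFP and 27.1% to 43.1% in WT-Cre, while the upper quartile stayed between 25.5 and 28 FPKM. What other RNAs the highest rows may record was not tested.

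**Figure D1:**
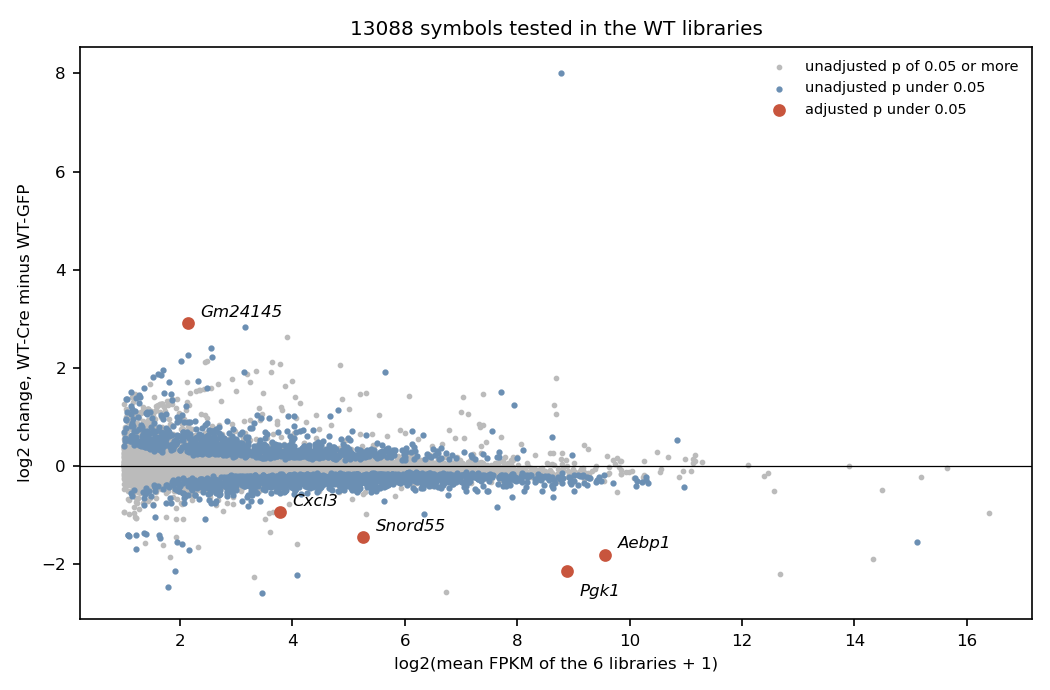
Change of each tested symbol (WT-Cre minus WT-GFP, log2(FPKM + 1) scale) against its mean level over the 6 wild type libraries, with the 5 symbols past the threshold in red. Pgk1 and Aebp1 stand far below the other genes of their level, and the single point near a change of 8 is Rn7s6.

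The 5 rows that passed were Pgk1, Aebp1, Snord55, Cxcl3 and Gm24145. The small RNAs among them come first, because their length bears on how many fragments stand behind their values. Snord55 is a box C/D small nucleolar RNA, a class that guides methylation of ribosomal RNA. It has 79 bases. Gm24145 is annotated as a small nuclear RNA of 163 bases at chr16:11167105-11167267 on the minus strand (GRCm38), in an intron of Zc3h7a on the same strand. Its sequence is shown because it is 81.6% identical to the U1 gene Rnu1b1, and the capitals mark the longest run shared with U1, 22 bases from base 9 to base 30. U1 is the spliceosomal RNA that pairs with the start of introns.
Gm24145: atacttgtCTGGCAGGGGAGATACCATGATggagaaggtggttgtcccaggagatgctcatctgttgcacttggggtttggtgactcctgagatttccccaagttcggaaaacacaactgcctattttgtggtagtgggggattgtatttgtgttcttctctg

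The 3 coding genes that fell lie on different chromosomes. Pgk1 is at chrX:106187100-106203699, Aebp1 at chr11:5861947-5872088 and Cxcl3 at chr5:90786103-90789600, all on the plus strand of GRCm38. The 250 bases before each start in RefSeq (GRCm38.p6) are printed because Pgk1 and Aebp1 moved together. The gene positions above are from the GENCODE annotation, whose starts can differ. The Aebp1 window ends at 5861865, short of the GENCODE start at 5861947, so the bases between them were not searched. The GC box (GGGCGG) was searched on both strands. So was the TATA box (TATAAA). The third motif was the CCAAT box (named by its letters). Capitals mark matches, and none of the matches overlap. The Pgk1 promoter (chrX:106186850-106187099) holds 1 GC box and 1 CCAAT. The Aebp1 promoter (chr11:5861616-5861865) holds none of the 3, and the Cxcl3 promoter (chr5:90785851-90786100) holds 1 TATA box. Of 32851 mouse promoter windows of that length, 32.7% hold the GC box, 33.8% CCAAT and 12.4% the TATA box. These matches describe the letters and do not show a bound site.
Pgk1: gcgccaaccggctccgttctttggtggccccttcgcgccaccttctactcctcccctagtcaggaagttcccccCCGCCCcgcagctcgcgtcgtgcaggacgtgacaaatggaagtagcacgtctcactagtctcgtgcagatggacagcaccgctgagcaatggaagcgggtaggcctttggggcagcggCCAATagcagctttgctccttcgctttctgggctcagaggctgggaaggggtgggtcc
Aebp1: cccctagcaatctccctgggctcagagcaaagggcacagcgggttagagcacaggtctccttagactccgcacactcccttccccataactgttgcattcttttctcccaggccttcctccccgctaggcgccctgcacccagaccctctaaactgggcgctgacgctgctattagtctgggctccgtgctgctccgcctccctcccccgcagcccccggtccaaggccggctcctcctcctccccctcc
Cxcl3: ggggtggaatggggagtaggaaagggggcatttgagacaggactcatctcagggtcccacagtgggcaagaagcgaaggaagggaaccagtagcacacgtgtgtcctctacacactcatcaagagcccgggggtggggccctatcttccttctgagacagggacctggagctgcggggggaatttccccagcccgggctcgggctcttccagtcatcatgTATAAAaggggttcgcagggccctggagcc

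Pgk1, which encodes the glycolytic enzyme phosphoglycerate kinase, was the largest fall among the 5. It stood at 849, 718 and 746 FPKM in WT-GFP 1, 2 and 3 and at 165, 181 and 176 FPKM in WT-Cre 1, 2 and 3. The groups did not come near each other, and WT-Cre kept 22.6% of the WT-GFP mean. The change was -2.14 (SE 0.08, adjusted p = 0.000254, limma). Aebp1 encodes a carboxypeptidase-like protein best known from fibroblasts and smooth muscle, where it is found in the extracellular matrix. Its row stood at 1180, 1134 and 1212 FPKM with the control virus and at 346, 340 and 324 FPKM with Cre virus. That is 28.6% of the WT-GFP mean, again with no overlap (change -1.80, SE 0.06, adjusted p = 0.000254).

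The fall was of similar size in both. The ratio of Aebp1 to Pgk1 was 1.39, 1.58 and 1.62 in the WT-GFP libraries and 2.09, 1.88 and 1.83 in the WT-Cre libraries, so the groups did not overlap. Transcripts of the 2 genes share no run longer than 12 bases on either strand. The sequences of the GFP and Cre vectors were not used here, so whether any reads of these rows come from a vector was not tested. A second row named Aebp1 held only 0.190 to 0.544 FPKM with the control virus and 0.123 to 0.405 with Cre virus. None of the coding genes within 300 kb of either gene passed the threshold. Pold2, a DNA polymerase delta subunit that starts 92 bp from Aebp1 on the other strand, had a change of -0.49 (adjusted p = 0.227). The 5 tested coding neighbours of Pgk1 had changes between -0.07 and 0.23.

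Both rows also fell in the floxed cells. Pgk1 went from 2642, 2664 and 1791 FPKM in Hoxa-flox to 380, 417 and 622 in Hoxa-del, and Aebp1 from 3658, 4037 and 2314 to 514, 668 and 821. The difference between the floxed and the wild type change was -0.19 for Pgk1 and -0.50 for Aebp1, and neither difference passed (adjusted p = 0.9997 for both).

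Snord55 stood at 54.7, 53.1 and 57.0 FPKM in WT-GFP and at 17.0, 21.5 and 20.3 FPKM in WT-Cre, which is 35.6% of the control mean. The change was -1.45 (SE 0.09, adjusted p = 0.0054). At full length and the estimated depth these values correspond to about 54.0 to 83.9 fragments per WT-GFP library and 6.84 to 18.8 per WT-Cre library. In floxed cells Snord55 ranged from 26.5 to 77.2 FPKM with control virus and from 33.7 to 112 after Cre, and the difference between the floxed and wild type changes was 1.86 (adjusted p = 0.9997).

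Cxcl3 encodes a chemokine that attracts neutrophils through CXCR2. It stood at 17.4, 16.4 and 17.2 FPKM in WT-GFP and at 8.42, 8.83 and 7.87 FPKM in WT-Cre, so Cre virus cells kept 49.3% of the control level (change -0.94, SE 0.07, adjusted p = 0.0121). Cxcl2, Ppbp and Cxcl5 of the same chemokine cluster on chromosome 5 had lower values after Cre, though Cxcl2 and Ppbp did not pass over all genes and Cxcl5 was not tested. Cxcl2, 114271 bp away and a ligand of the same receptor, stood at 15.8, 14.9 and 15.4 FPKM against 9.70, 11.0 and 9.99 (change -0.54, adjusted p = 0.161). Ppbp, which platelets store and process into a neutrophil attractant, stood at 9.85, 10.6 and 9.68 against 5.86, 5.22 and 7.43 FPKM (change -0.63, adjusted p = 0.227). Cxcl5 lay below the filter, with 0.662, 0.535 and 0.713 FPKM against 0.0515, 0 and 0.110. Pf4, between them on the chromosome, overlapped between groups, with 85.4, 101 and 94.3 FPKM against 104, 90.7 and 93.3. Cxcl1 of the same cluster, also below the filter, overlapped too, with 0.267, 0.194 and 0.437 FPKM against 0.321, 0 and 0.290. In floxed cells Cxcl3 was at most 1.06 FPKM in any library, and the difference in change there (1.39, adjusted p = 0.778) compares wild type cells with cells that barely had the transcript.

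Gm24145 was the only symbol past the threshold in the upward direction, and it met the filter through its WT-Cre values alone. It was listed at 0 in all 3 WT-GFP libraries and at 4.81, 10.1 and 5.61 FPKM in WT-Cre 1, 2 and 3, which corresponds to about 9.78, 6.6 and 10.7 fragments. Its change of 2.91 (SE 0.25, adjusted p = 0.0241) depends on the pseudocount of 1 and is not a fold. The 3 equal WT-GFP values add no spread between libraries to that SE. In floxed cells it was listed at 0, 0 and 4.45 FPKM with control virus and at 8.11, 0 and 1.15 after Cre, so it was detected in a library without Cre and not in every library with it. The difference between the floxed and wild type changes was -2.30 (adjusted p = 0.9997). The host gene Zc3h7a had 80.9, 105 and 109 FPKM in WT-GFP and 116, 105 and 111 in WT-Cre. The largest change of all tested symbols belonged to Rn7s6, a 7SL-like RNA row that was listed at 0 in every WT-GFP library and at 108, 2447 and 63.0 FPKM in WT-Cre 1, 2 and 3. The spread within WT-Cre was so wide that it did not pass (change 8.01, adjusted p = 0.227), and it was listed at 0 in all 6 floxed libraries. Rn7s6 also met the filter through WT-Cre alone.

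Leaving out 1 library at a time, the calls of Pgk1 and Aebp1 held every time, with adjusted p no higher than 0.00629. Snord55 lost its call without WT-GFP 1, WT-GFP 2 or WT-GFP 3 (adjusted p from 0.0583 to 0.126), Cxcl3 without any single library except WT-Cre 2 (0.0572 to 0.153), and Gm24145 without any WT-GFP library or without WT-Cre 3 (0.102 to 0.222). Each such fit has 5 libraries.

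**Figure D2:**
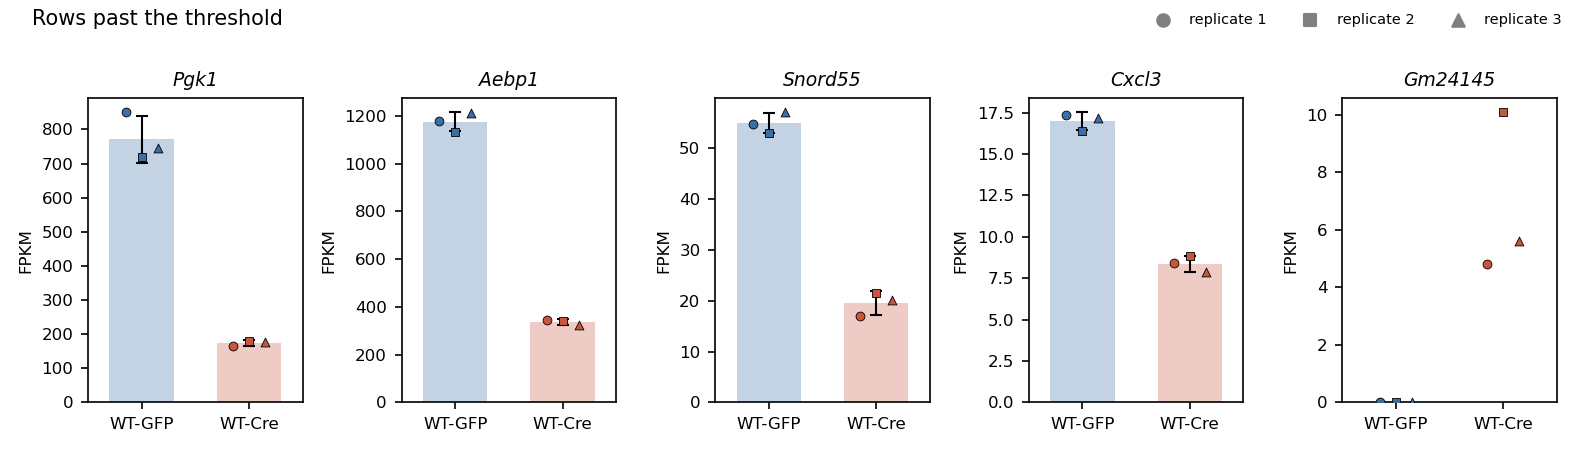
FPKM of the 5 symbols past the threshold in each library, by group, with bars at the mean and error bars of 1 SD over 3 libraries, except for Gm24145, whose libraries are drawn as points because 3 were listed at 0. Pgk1 fell from 718 to 849 FPKM in WT-GFP to 165 to 181 in WT-Cre, and Gm24145 appears in WT-Cre only.

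No Hoxa gene, the target of Cre in floxed cells, passed the threshold in wild type cells. Of 11 genes in the list, 8 had a row and 6 were tested. Hoxa9 stood at 183, 159 and 159 FPKM in WT-GFP and at 161, 171 and 152 in WT-Cre, and the groups overlapped. Hoxa10 stood at 38.5, 35.2 and 38.4 against 36.2, 32.9 and 36.0 FPKM, and Hoxa7 at 46.0, 36.6 and 42.2 against 38.3, 41.7 and 39.4. Hoxa2 was the only tested member whose groups did not overlap, with 48.9, 54.3 and 49.4 against 55.2, 64.1 and 59.1 FPKM (change 0.22, adjusted p = 0.257). Hoxa4 overlapped between the groups.

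The remaining results describe gene lists. They are given as counts at an unadjusted p under 0.05 and as medians of the change, beside the backgrounds of 6.02% higher, 10.9% lower and a median of -0.03 over all genes; no list was tested as a set. Pgk1 was the only list member past the threshold over all genes, so the other members named below did not pass, and the adjusted p is given for some of them.

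Replication-dependent histone genes, whose transcripts are made in S phase, showed lower values almost throughout. Of 22 tested members 18 had p under 0.05 and were lower, none was higher, and the same number showed no overlap between groups (background 16.2% lower without overlap and 9.91% higher). The median change was -0.38. Hist1h4b stood at 219, 205 and 197 FPKM in WT-GFP and at 154, 140 and 141 in WT-Cre (change -0.51, adjusted p = 0.161). Hist1h4c, the most abundant, went from 796, 572 and 687 to 539, 558 and 467 FPKM (-0.38, adjusted p = 0.257). Without WT-GFP 1 the list's median was -0.31 and 15 members were lower, and without WT-Cre 2 it was -0.43 with 20 lower.

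Genes of DNA replication and of mitosis also had medians below that of all genes. Of 30 S phase genes 14 were lower and none higher (median -0.18), and of 30 mitosis genes 13 were lower and none higher (median -0.16). Mcm7, a subunit of the replicative helicase, stood at 31.1, 30.8 and 31.0 FPKM against 25.4, 23.3 and 24.3 (change -0.34, adjusted p = 0.227). Rrm2, the ribonucleotide reductase subunit that supplies deoxynucleotides, stood at 31.4, 30.4 and 30.2 against 24.7, 24.8 and 25. Ube2c, the ubiquitin conjugating enzyme of the anaphase promoting complex, stood at 46.8, 45.3 and 43.6 against 35.7, 33.2 and 31.8 (-0.42, adjusted p = 0.227), and Cdc20, an activator of that complex, at 20.4, 20.4 and 22.6 against 16.3, 15.5 and 15.7. The proliferation marker Mki67 differed less, with 78.2, 73.7 and 72.7 against 67.4, 65.1 and 68.4 FPKM (-0.16). In each of these 5 genes all WT-Cre libraries were below all WT-GFP libraries, but Mcm7, Rrm2, Ube2c and Cdc20 were named for their small p. Over the lists, 14 of 30 S phase and 15 of 30 mitosis genes were lower without overlap, against 16.2% over all genes. Top2a, the topoisomerase of mitotic chromosomes, overlapped, with 52.4, 51.0 and 52.9 against 43.8, 53 and 51.8 FPKM (-0.08, adjusted p = 0.633). Counts of lower members without 1 library ran from 11 to 12 for the S phase list and from 10 to 11 for the mitosis list.

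Primary granule genes had lower values as well. Of these 14 genes, which encode the enzymes that promyelocytes pack into azurophil granules, 9 were lower and none higher (median -0.21). Mpo, the myeloperoxidase, stood at 326, 269 and 282 FPKM against 186, 195 and 180 (change -0.64, SE 0.08, adjusted p = 0.161). Elane, neutrophil elastase, stood at 2603, 2082 and 2219 against 1800, 1766 and 1589 (-0.42, adjusted p = 0.231), Prtn3 at 1642, 1319 and 1375 against 1145, 1182 and 1086, and Ctsg, cathepsin G, at 838, 773 and 762 against 651, 657 and 625. WT-GFP 1 was the highest library for all 4. Without it, 7 members were lower and the median was -0.16, and without WT-Cre 1 or WT-Cre 3 the count was 6. Of 22 late neutrophil genes 8 were lower and none higher (median -0.12), 7 had positive changes, and 5 were lower without WT-Cre 2. Among them Camp, the cathelicidin of secondary granules, stood at 273, 243 and 244 against 206, 189 and 181 FPKM (-0.40, adjusted p = 0.227), while the calprotectin subunit S100a8 overlapped, with 2037, 2250 and 2303 against 2442, 2297 and 2359. In bulk RNA, fewer cells of a type and less RNA per cell cannot be told apart.

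Most monocyte and macrophage genes had higher values after Cre virus. Of 22 tested members 18 had changes above 0 and 4 below, the lowest at -0.44. At p under 0.05 there were 6 higher and none lower, and the median was 0.14. Spp1, the secreted phosphoprotein osteopontin, came closest to the threshold, with 306, 320 and 315 FPKM against 460, 459 and 497 (change 0.59, SE 0.06, adjusted p = 0.0699). Ctss, a cathepsin of antigen presenting cells, stood at 118, 120 and 118 against 146, 143 and 145 (0.28, adjusted p = 0.227). Lyz2, lysozyme, was the most abundant member and stood at 1968, 1896 and 1921 against 2173, 2097 and 2102 (0.14, adjusted p = 0.364). The macrophage marker Adgre1 stood at 41.1, 42.2 and 41.3 against 46.9, 48.2 and 45.9, whereas Csf1r, the receptor for macrophage colony stimulating factor, overlapped at 42.0, 36.9 and 39.1 against 39.3, 41.7 and 38.5. The number of higher members was 10 without WT-GFP 1, 4 without WT-Cre 1 or WT-Cre 3, and 5 or 6 without any other library. Without WT-GFP 3 or WT-Cre 3, 1 member was lower.

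The list of MHC class II and dendritic genes, which serve antigen presentation, had 7 tested members. Of these, 5 were lower with p under 0.05 and none was higher (median -0.41). The most abundant, H2-DMa, which helps to load peptides, overlapped, with 45.9, 33.8 and 40.9 FPKM against 37.4, 43.1 and 39.2 (adjusted p = 0.995). Cd74, the invariant chain, stood at 38.5, 28.3 and 29.3 FPKM against 21.0, 23.4 and 21.6 (-0.51, adjusted p = 0.227), and H2-Aa at 11.2, 9.36 and 9.50 against 7.03, 5.28 and 6.93 (-0.58, adjusted p = 0.227). The count fell to 2 without WT-GFP 1 or without WT-Cre 3, and to 3 without WT-Cre 2.

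Of 19 myeloid transcription factors 8 were lower and 2 higher (median -0.17). The lower count was 4 without WT-Cre 1 and 5 without WT-GFP 1 or WT-Cre 3. Spi1, the PU.1 factor of myeloid cells, stood at 314, 269 and 273 FPKM against 230, 248 and 228 (-0.27, adjusted p = 0.239). Cebpe, a factor of late granulocyte maturation, stood at 90.2, 74.8 and 81.3 against 67.7, 65.4 and 61.4 (-0.33). Id2, an inhibitor of basic helix-loop-helix factors, stood at 25.9, 26.3 and 23.5 against 31.6, 31.5 and 30.5 (0.30). Of 18 MLL fusion target genes 3 were lower and none higher, and the median was 0.00. These counts rested on single libraries: without WT-GFP 2 there were 3 higher and 2 lower, without WT-GFP 1 there was 1 lower, without WT-Cre 2 there were 1 higher and 4 lower, and without WT-Cre 3 there was 1 in each direction. Myb, the most abundant member and a factor of progenitor growth, overlapped between groups, with 472, 476 and 463 FPKM against 474, 462 and 472. Prmt1, an arginine methyltransferase, stood at 43.8, 39.1 and 41.3 against 32.4, 31.0 and 27.1 (-0.45, adjusted p = 0.227). Of 9 stem and progenitor genes 2 were lower and none higher, with 4 changes above 0 and 5 below (median -0.01), and without WT-GFP 2 there were 2 in each direction. The 2 lower ones were Kit and Erg. Kit, the SCF receptor, stood at 4.99, 5.44 and 5.32 against 4.16, 3.81 and 4.18, and Erg, a stem cell factor, at 15.3, 13.9 and 14.6 against 11.9, 12.6 and 12.3. Cd93, a surface marker of progenitors, stood at 46.5, 46.5 and 47.7 against 50, 47.9 and 50.5 (0.07, adjusted p = 0.487).

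**Figure D3:**
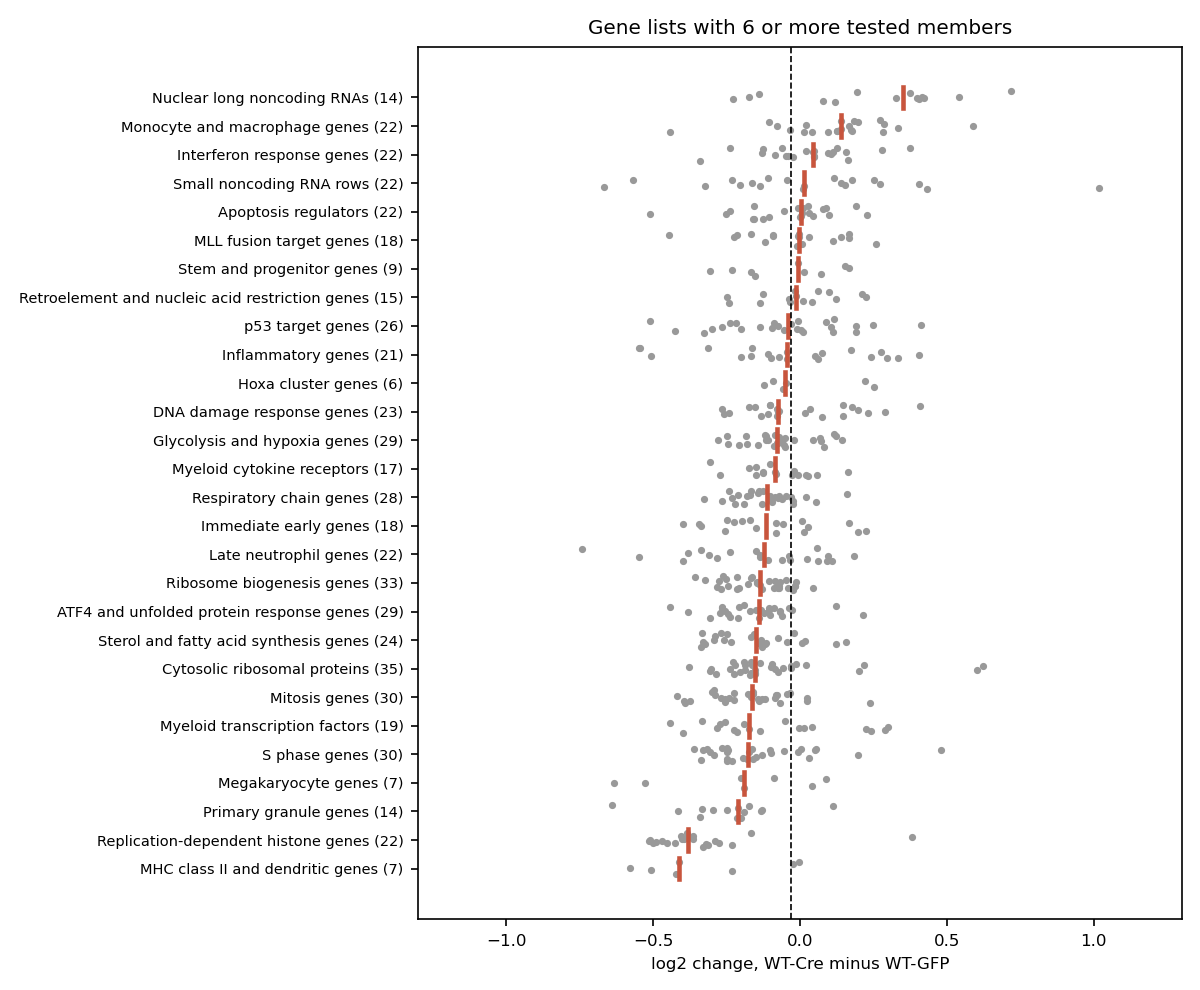
Change of each tested member (grey points) and the median (red bar) for the 28 lists with at least 6 tested members, WT-Cre minus WT-GFP on the log2(FPKM + 1) scale, with the median of all genes as a dashed line; 3 members lie outside the axis. Histone and MHC class II genes lie lowest and the nuclear long noncoding RNAs highest.

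Lists that bear on damage and on virus sensing had medians from -0.08 to 0.05, against -0.03 over all genes. Of 26 p53 target genes 6 were lower and 3 higher (median -0.04), beside 10.9% lower and 6.02% higher over all genes. Cdkn1a, the cell cycle inhibitor p21, stood at 105, 89.6 and 93.4 FPKM with control virus and at 75, 72.8 and 80.8 with Cre virus (-0.33, adjusted p = 0.227), Bax, a pore-forming apoptosis gene, at 108, 93.3 and 97 against 85.3, 82.5 and 83.8, and Fas, a death receptor, at 4.62, 4.07 and 4.91 against 6.10, 6.19 and 6.75 (0.41, adjusted p = 0.227). The direction was mixed among these genes, which p53 is known to induce. Of 23 DNA damage response genes 1 was lower and 2 were higher (median -0.08). The lower one was Rpa1 (30.3, 25.5 and 27.4 against 23.8, 23.2 and 21.8). The higher ones included the checkpoint kinase Atr (3.98, 5.80 and 5.01 against 7.07, 6.08 and 7.32). Of 22 apoptosis regulators 4 were lower and 1 higher (median 0.00), and Bbc3, the PUMA gene, stood at 18, 15.4 and 14.8 against 12.3, 8.10 and 13.1. With 1 library left out the p53 list had 1 to 3 higher, with 1 without WT-GFP 1, WT-GFP 3, WT-Cre 1 or WT-Cre 3, and 5 to 7 lower. The damage list had none higher without WT-GFP 1, WT-Cre 1 or WT-Cre 3, 1 without WT-GFP 3, 3 higher and 2 lower without WT-Cre 2, and 3 lower without WT-Cre 3. The apoptosis list had 1 lower without WT-GFP 1 and 2 without WT-GFP 3, WT-Cre 1 or WT-Cre 3.

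Interferon response genes, which mark sensing of viral nucleic acid, had 2 lower and 1 higher of 22 (median 0.05). Bst2, a membrane tether of enveloped viruses, stood at 47.6, 40.6 and 40.4 FPKM against 37.1, 30.7 and 33.1, and Rtp4 at 7.44, 6.73 and 5.87 against 8.65, 10.6 and 7.71. Of 15 genes that restrict retroelements and foreign nucleic acid 1 was lower and 1 higher: Trim28, a corepressor that silences retroviruses, stood at 78.3, 66.7 and 72.6 against 62.0, 56.5 and 64.9, and Samhd1, which depletes deoxynucleotides, at 39.6, 46.9 and 45.7 against 46.8, 55.1 and 52.9. Without 1 library both lists had between 0 and 2 in either direction. Both groups carried a retrovirus, so these values compare 2 infected populations. Among 21 inflammatory genes 6 were higher and 4 lower, and the chemokine Ccl6 stood at 236, 248 and 247 against 322, 297 and 303 (0.33, adjusted p = 0.227). Of that list 2 were lower without WT-GFP 1 or WT-Cre 3.

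Metabolic and growth lists had medians slightly below that of all genes. In the glycolysis and hypoxia list, 29 tested members had a median of -0.08, with 5 lower and 1 higher, so the fall of Pgk1 was not shared in size by the pathway. Pkm, pyruvate kinase, stood at 1399, 1267 and 1252 FPKM against 1203, 1079 and 1178 (-0.18, adjusted p = 0.325), and Hk1, a hexokinase, at 107, 97.3 and 99 against 88.2, 91.5 and 86.9 (-0.18). The ribosome biogenesis list had 32 of 33 members below 0 and a median of -0.14. The medians of all genes and of protein coding symbols were also below 0 (-0.03 and -0.05). Only 6 members of the list had p under 0.05, Tcof1 among them (23.0, 20.7 and 20.3 against 17.3, 18.2 and 17.0). Cytosolic ribosomal proteins had 11 of 35 lower (median -0.15), respiratory chain genes 10 of 28 (-0.11), sterol and fatty acid synthesis genes 7 of 24 (-0.15, with Srebf2, the regulator of sterol synthesis, at 28.9, 25.6 and 27.1 against 21.8, 22.0 and 20.7), and ATF4 and unfolded protein response genes 10 of 29 (-0.14, with Shmt2 at 61.4, 54.4 and 56.9 against 48.9, 45.2 and 48.2). The counts depended on single libraries. Without WT-Cre 3 the lower members numbered 1 for glycolysis, 4 for ribosomal proteins, 5 for the respiratory chain and 4 for sterol synthesis. Without WT-Cre 1 they numbered 2 for glycolysis, 6 for ribosomal proteins, 6 for the respiratory chain and 6 for the ATF4 list. Without WT-GFP 3 they numbered 3 for ribosome biogenesis and 6 for both ribosomal proteins and the respiratory chain. Without WT-GFP 1 they numbered 3 for ribosome biogenesis and 6 for the respiratory chain, and without WT-Cre 2 they numbered 6 for the respiratory chain.

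**Figure D4:**
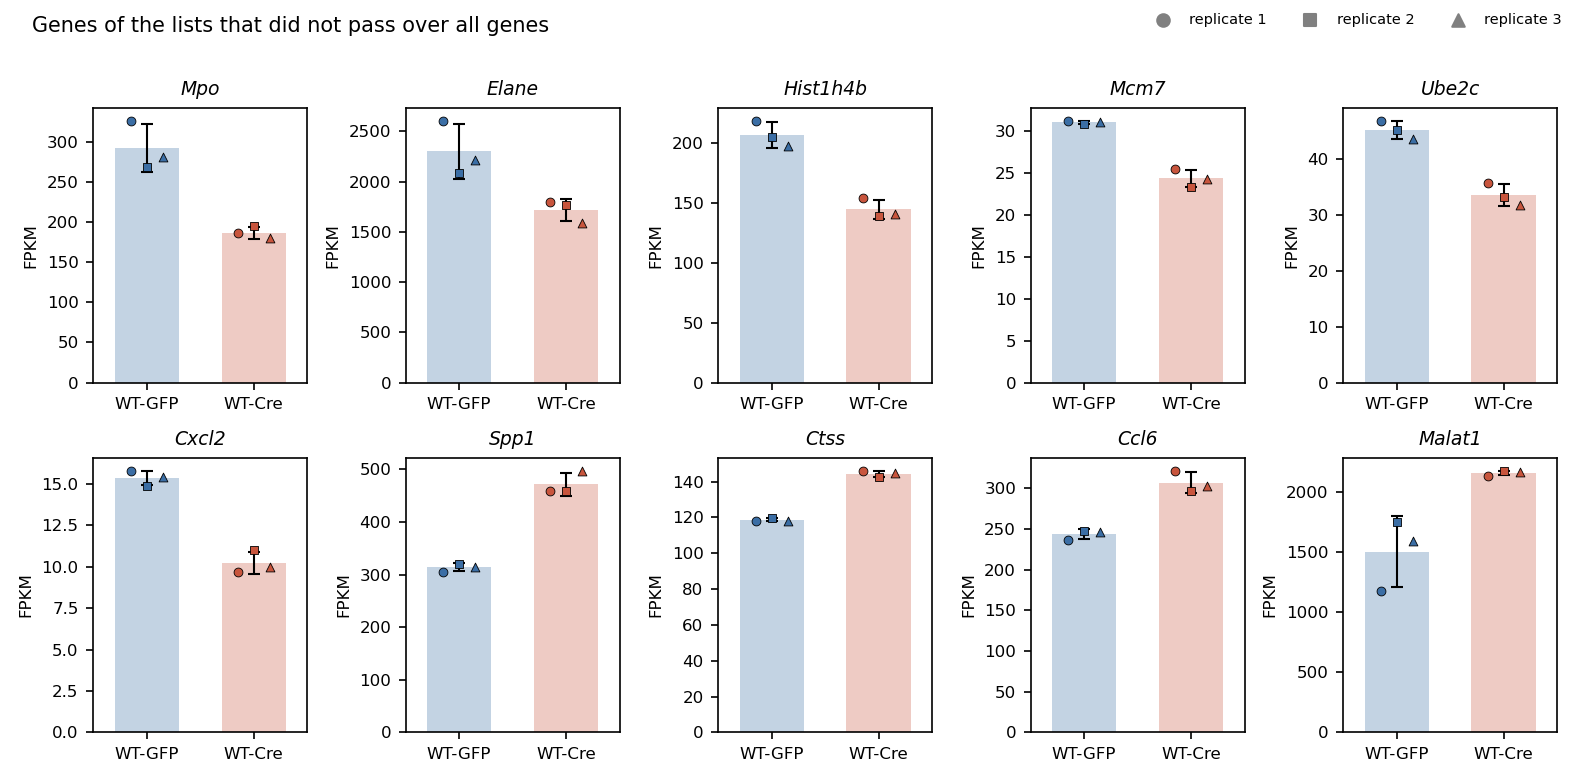
FPKM of 10 list members that did not pass over all genes, chosen after their values were seen, by library, with bars at the mean and error bars of 1 SD over 3 libraries. The values of WT-GFP and WT-Cre do not overlap in any of them; Malat1 is spread in WT-GFP, from 1174 to 1744 FPKM, and tight in WT-Cre, from 2132 to 2167.

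Nuclear long noncoding RNAs had the highest median of the larger lists. Of 14 tested members 6 were higher and 1 lower (median 0.35). Malat1, a nuclear speckle RNA, stood at 1174, 1744 and 1586 FPKM against 2132, 2167 and 2161 (change 0.54, SE 0.15, adjusted p = 0.238). Gas5, a host gene of snoRNAs, stood at 135, 134 and 149 against 270, 256 and 176 (0.72, adjusted p = 0.227). WT-GFP 1 was the lowest library for the list. Without it 3 members were higher and the median was 0.15, without WT-Cre 1 there were 3 higher, and without WT-Cre 2 the values were 4 and 0.21.

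Several lists moved together within WT-GFP as well as between the groups. In WT-GFP 1 the medians of the histone, MHC class II and primary granule lists were 0.17, 0.20 and 0.13 above the WT-GFP mean and that of the nuclear noncoding RNAs 0.13 below it, the opposite side from the WT-Cre libraries. The histone medians of WT-Cre 1, 2 and 3 were -0.33, -0.30 and -0.53, each beyond the range of WT-GFP. What part the spread among WT-GFP libraries has in the group differences was not tested.

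**Figure D5:**
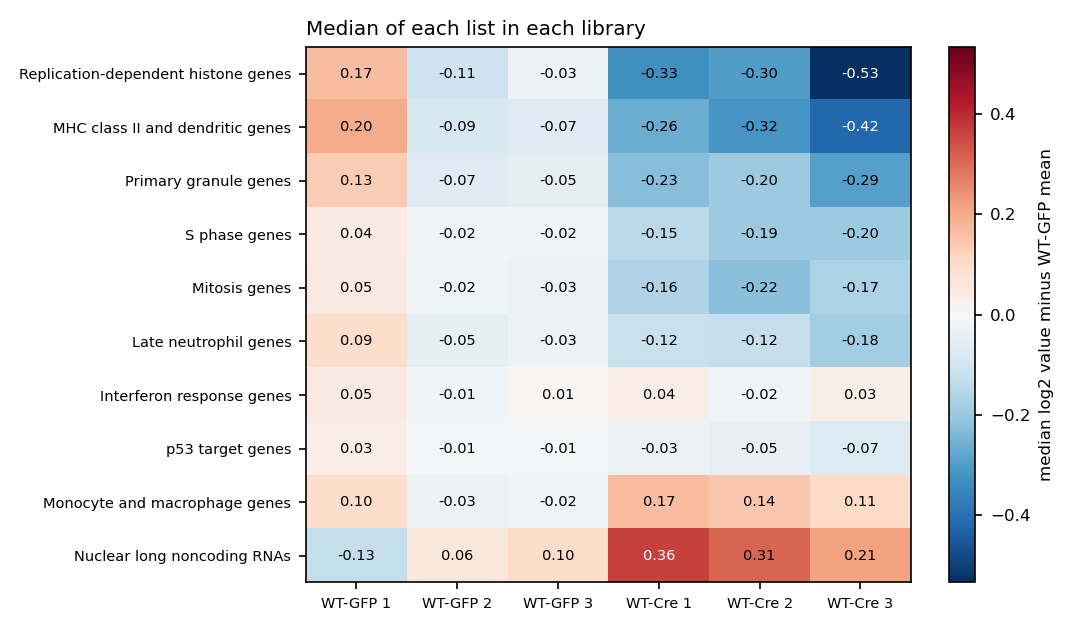
Median of each list in each library, as the log2(FPKM + 1) value minus the mean of the WT-GFP libraries, for 10 lists. The WT-Cre columns lie below 0 for the first 6 lists and above 0 for the last 2, and WT-GFP 1 lies on the other side from WT-Cre for most of them.

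Defining markers of B cells, T cells and red cells were at or near 0, with exceptions, and some megakaryocyte genes were well above it. The B cell factor Pax5 was listed at 0 in all 6 libraries, the T cell receptor subunit Cd3e was at most 0.0766, Cd4 at most 0.142 and the globin Hba-a1 at most 0.181. In the B cell list 2 genes were tested, in the T and NK cell list 3, and in the stromal and endothelial list 1. Of the B cell genes tested, Cd22 stood at 2.55, 1.27 and 1.57 FPKM against 0.662, 1.31 and 0.979 (-0.48). Cd79b stood at 2.45, 1.64 and 1.83 against 1.12, 2.00 and 0.746 (-0.40). Both overlapped between groups. Of 7 tested megakaryocyte genes 4 were lower and none higher (median -0.19), and 1 was lower without WT-GFP 1 or WT-Cre 2. In that list Pf4 was at 85.4 FPKM or more in every library and Nfe2 at 116 or more. Of 2 tested erythroid genes Alas2 stood at 0, 1.11 and 0.860 against 4.64, 1.34 and 1.84 (1.08, adjusted p = 0.272), and Tfrc overlapped. None of 3 mast cell and basophil genes had p under 0.05. The summed B cell list was 2.91 to 5.0 FPKM in WT-GFP and 1.72 to 3.31 in WT-Cre, and the summed T and NK list 53 to 118 against 45.7 to 57.6. Most of the T and NK sum was Klrb1c, the gene of the NK1.1 antigen, with 107, 42.0 and 58.7 FPKM against 47.8, 42.7 and 35.9 (-0.61, adjusted p = 0.356), where WT-GFP 1 stood apart and the groups overlapped. Pecam1, an adhesion molecule of endothelium that myeloid cells also carry, stood at 12.5, 11.1 and 10.6 against 11.1, 9.12 and 11.5. The part of these genes in the results was not tested. Nkg7, a gene of cytotoxic lymphocyte granules, stood at 7.49, 7.79 and 8.70 FPKM against 5.32, 5.03 and 5.50 (-0.51, adjusted p = 0.227). Il7r, the other tested member of the T and NK list, was higher, with 3.49, 3.27 and 3.59 against 4.52, 4.14 and 4.34 (0.26, adjusted p = 0.263). Myeloid markers were high throughout, with Lyz2 at 1896 FPKM or more in every library.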

How the data were processed

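RNA was measured in 12 libraries, of which 6 (WT-GFP and WT-Cre, 3 each) enter the comparison. The submitters' processing notes name the builds GRCm38 and mm10 and the tools STAR, Cuffdiff (2.2.2.20150701) and Cufflinks, without their roles. The annotation and any scaling were not given in the sources used here. The deposited matrix was taken to hold the authors' FPKM, a unit inferred from the values because the header names none. It has 28042 rows and 25263 symbols; where a symbol had several rows (1855 symbols), the most abundant one was tested.

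Values were analysed as log2(FPKM + 1) with limma 3.58.1 in R 4.3.3 (linear model, moderated test with a mean trend) on the 6 libraries alone, for symbols averaging 1 FPKM or more, and adjusted over 13088 symbols by the Benjamini-Hochberg method. The script was tested on simulated data. Differences between wild type and floxed cells came from an interaction term over all 12 libraries. FPKM hold no counts; depth was estimated from the steps between low values of genes of at least 1000 bases, and fragment numbers rest on that estimate. Positions come from GENCODE M21 (GRCm38), matched by symbol, and promoters from RefSeq. Genes named in the text passed the threshold, are Hoxa genes, lie within 300 kb of a gene that passed, are among the 10 largest rises or 10 largest falls with p under 0.01, no overlap and at least 5 FPKM in the higher group, or are the 2 members of a list with the smallest p or the highest mean; Adgre1, Csf1r and the other cell type markers were added after their values were seen. The comparison, the 34 gene lists and the tests were chosen with earlier results of these data known. Alternatives were another pseudocount, other filters, equal upper quartiles, array weights, all 12 libraries, a replicate block and leaving out each library. A few genes and 1 sequence are not reported here.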

Additional observations from a re-analysis of the deposited data

How the results depend on the processing

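Pgk1 and Aebp1 kept their direction and call under another pseudocount, both other filters, equal upper quartiles, array weights, all rows of repeated symbols, the replicate block and each left-out library; with all 12 libraries in 4 groups Pgk1 passed and Aebp1 did not (-1.80, adjusted p = 0.061). In that fit Snord55 (-1.45), Cxcl3 (-0.94) and Gm24145 (2.91) did not pass (adjusted p = 0.9997), 2 symbols passed (Pgk1 lower, 1, and Rn7s6 higher), and 357 had an unadjusted p under 0.05. Without a filter no symbol passed upward (0), with Gm24145 at 2.91 (adjusted p = 0.157). At a mean of at least 5 FPKM 0 passed upward, but Gm24145 lay below that filter and was not tested there. With array weights 9 passed, 3 of them higher; the added ones were Cxcl2, Mpo, Ppm1h and Spp1, named after their values were seen.

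Replicate numbers are shared between the groups, but deviations of same-numbered libraries correlated at 0.0099, -0.0054 and 0.0835, so the numbers were not taken as pairs. With the replicate block 2 symbols passed, 2 lower and 0 higher; Snord55 (-1.45, adjusted p = 0.0748), Cxcl3 (-0.94, adjusted p = 0.209) and Gm24145 (2.91, adjusted p = 0.172) did not.

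Leaving out 1 library at a time gave 2 to 9 symbols past the threshold (0 to 5 higher, 2 to 6 lower) and 1399 to 2142 at an unadjusted p under 0.05, with 1399 without WT-GFP 1 and 9 without WT-Cre 2. Changes ranged from -1.52 to -1.35 for Snord55, -0.98 to -0.90 for Cxcl3 and 2.63 to 3.10 for Gm24145. Some small changes turned sign: with 1 library left out Hoxa9 ranged from -0.091 to 0.021, Hoxa7 from -0.145 to 0.018, Pf4 from -0.024 to 0.095, Csf1r from -0.025 to 0.067, H2-DMa from -0.119 to 0.098, Top2a from -0.129 to 0.0064 and Myb from -0.013 to 0.0083. With equal upper quartiles Hoxa9 was 0.0035, H2-DMa 0.048 and Myb 0.049, and with array weights Myb was 0.017 and Pecam1 0.012. The cause of these differences was not tested. The list and class values without single libraries were chosen after the data were seen. The depth of WT-Cre 2, 4020000 fragments, limits what its low rows can show.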

Other observations

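Classes of annotated genes differed in their medians. The 9965 protein coding symbols had a median change of -0.05, with 454 higher and 1256 lower at an unadjusted p under 0.05. The 220 lincRNAs had a median of 0.14 (29 higher, 5 lower), the 333 antisense RNAs 0.11 (40 higher, 14 lower) and the 126 symbols of class TEC, loci annotated as still to be checked by experiment, 0.30 (23 higher, 2 lower). The medians of these 3 noncoding classes stayed above 0 when any single library was left out, although that of TEC was 0.18 without WT-GFP 1, and all 3 were lowest in WT-GFP 1 (-0.10, -0.06 and -0.21 against the WT-GFP mean). The median of 72 miscellaneous RNAs was 0.71, and 0.13 without WT-Cre 2, while 10 were higher with and without that library. The median of 82 small nuclear RNAs was 0.57, and 0.13 without WT-Cre 2, with 8 higher in all libraries, 9 without WT-Cre 2 and 2 without WT-GFP 1.

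By chromosome, medians ran from -0.08 to 0.03, leaving out Y, with 1 tested symbol (0.27).

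Among the 10 largest rises and the 10 largest falls that did not pass over all genes, with p under 0.01 and no overlap, were the pseudogene Gm13574 (5.96, 12.1 and 11.9 FPKM in WT-GFP against 21.8, 22.8 and 17.4 in WT-Cre), Apitd1, a centromere protein gene (6.59, 6.77 and 6.84 against 3.09, 3.83 and 4.42), and Asrgl1, an asparaginase (8.98, 9.67 and 10.0 against 4.80, 7.67 and 4.38).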
